A study of Rattus norvegicus with 46 samples.

Results

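The genes described here are 9 rat genes of the NRF2 antioxidant programme: Nfe2l2, Gclc, Gclm, Gsr, Txnrd1, Srxn1, Hmox1, Nqo1 and Osgin1. The set was drawn up with earlier results of these data known. Its probes were those whose symbol in the array table, current or older, was one of these names. The genes are 9 of 21914 on the array. Each had 1 probe. Osgin1 stands in the table under its older symbol Okl38, and Srxn1 under Npn3 with a suffix that marks a predicted gene. The RNA came from heart muscle cells isolated from adult male wild-type Wistar rats and kept overnight on laminin without serum. The cells were then held for 24 h with octanoate (8 arrays), palmitate (8 arrays), stearate (8 arrays), oleate (8 arrays) or linoleate (7 arrays), each at 0.4 mM and carried by bovine serum albumin (BSA) at 1%, while control cells had BSA at 1% without a fatty acid (7 arrays). All groups therefore received BSA and no serum. Octanoate is a medium-chain and palmitate and stearate are long-chain saturated fatty acids. Oleate and linoleate have the chain length of stearate, oleate with 1 double bond and linoleate with more than 1.

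NRF2, the protein of Nfe2l2, is a transcription factor that KEAP1 marks for degradation in unstressed cells. Oxidants and electrophiles that modify KEAP1 let NRF2 build up, pair with small MAF proteins and bind antioxidant response elements near its target genes. The targets make glutathione, keep thioredoxin reduced, and detoxify quinones and haem, and in heart muscle they are known as a defence against oxidative injury.

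Promoter windows of 7 of the 9 genes were found in RefSeq's table for the GRCr8 assembly, those of Hmox1 and Gsr being the exceptions. Each window runs from 250 bases before to 50 bases after an annotated transcription start. For Gclm, Nqo1 and Srxn1 that start was the outermost of the gene, whereas for Gclc, Nfe2l2, Osgin1 and Txnrd1 it lay 225, 2166, 13565 and 37702 bases inside the gene. The core of the antioxidant response element was searched as TGACNNNGC on both strands. Of 33365 promoter windows of this length in the rat table, 12.1% held a match. Among the 7 windows Gclm and Nfe2l2 held it. In Gclm it read TGACTAAGC on the strand opposite to the gene and began 172 bases before the start, and in Nfe2l2 it read TGACGCCGC on the gene's own strand, past the start. The related AP-1 element TGANTCA was present in 7.34% of all windows and, among these genes, at 2 places in Srxn1. The second of these carried the longer form TGANTCAGC, which overlaps AP-1 and antioxidant elements and was found in 1.11% of all windows, as TGAGTCAGC across the Srxn1 start. A match describes letters and is no measured binding site. Bases outside the windows were not searched, so a window without a match does not show that the gene lacks the element. The 250 bases before the start are shown for the 3 genes whose window lies at the outermost start. They make up 1 window with the element, 1 without a match and 1 with the joint form. The stretches shown are Gclm at chr2:213031885-213032134 on the plus strand, Nqo1 at chr19:52220268-52220517 on the minus strand and Srxn1 at chr3:161064562-161064811 on the plus strand. Each is written along the strand of the gene, with the antioxidant or joint element in capitals, which in Gclm reads as the complement and in Srxn1 is broken off by the start.
Gclm: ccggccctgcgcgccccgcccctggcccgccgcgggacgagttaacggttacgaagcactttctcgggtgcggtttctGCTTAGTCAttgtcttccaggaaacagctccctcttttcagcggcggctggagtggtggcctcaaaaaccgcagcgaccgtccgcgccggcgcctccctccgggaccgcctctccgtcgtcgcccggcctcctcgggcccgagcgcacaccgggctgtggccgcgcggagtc
Nqo1: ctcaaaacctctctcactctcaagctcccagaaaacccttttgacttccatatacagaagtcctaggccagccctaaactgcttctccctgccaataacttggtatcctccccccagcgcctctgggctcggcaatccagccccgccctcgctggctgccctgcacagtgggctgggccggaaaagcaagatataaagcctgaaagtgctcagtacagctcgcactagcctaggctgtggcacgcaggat
Srxn1: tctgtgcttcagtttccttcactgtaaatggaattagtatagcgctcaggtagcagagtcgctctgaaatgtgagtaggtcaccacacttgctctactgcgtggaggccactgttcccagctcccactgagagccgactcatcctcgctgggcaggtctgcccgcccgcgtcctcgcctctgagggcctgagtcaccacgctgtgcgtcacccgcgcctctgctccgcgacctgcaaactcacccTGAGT

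Each array detected between 3090 and 7886 probes at a detection p-value under 0.01, and 4 arrays, 3 of stearate and 1 of oleate, detected under 4500. After filtering, 7182 genes were tested. Levels are given as log2 of the background-corrected, quantile-normalized bead intensity, and changes as differences of group means on that scale with their standard error (SE), from a limma model over all 46 arrays with Benjamini-Hochberg adjustment. Levels of different genes come from different probes and are not compared. The labels do not say that replicates are separate rats or cultures, so a p-value here reflects the scatter of the deposited samples alone, part or all of which may be technical. The RNA was cardiomyocyte-like: 12 of 13 cardiomyocyte markers were detected on most or all of the 46 arrays, Actc1 being the exception with 1 array in all. No macrophage and leukocyte marker out of 12 on the array, no endothelial marker out of 6 and no adipocyte marker out of 6 was detected as widely. Of 6 smooth muscle and pericyte markers 2 were, Des (46 arrays), which heart muscle cells also express, and Cspg4 (39 arrays), and the median sum of that list was 36260 to 42910 in the 5 fatty acid groups, against 40410 in control. Of 5 red blood cell markers 1 was, Hba-a1 (43 arrays), with Alas2 on no array. That list summed to 356.0 to 7085 in octanoate (median 1162), 319.6 to 6393 in palmitate (1195), 626.4 to 8876 in stearate (1816), 369.0 to 4859 in oleate (1742) and 395.0 to 3149 in linoleate (846.8), against 329.7 to 3394 in control (840.8). Of 10 fibroblast markers 3 were detected widely, Dcn (46 arrays), Col1a2 (45 arrays) and Fn1 (41 arrays). Col1a1 and Thy1 were detected on no array. The fibroblast list summed to 2071 to 6114 in octanoate (median 2888), 1868 to 5172 in palmitate (2532) and 1756 to 5325 in stearate (2428). In oleate it summed to 2465 to 6894 (3915) and in linoleate to 2070 to 7018 (3287), against 2383 to 8362 in control (4993). The cardiomyocyte list summed to a median of 203200 in octanoate, 231300 in palmitate, 253400 in stearate, 242900 in oleate and 247300 in linoleate, against 266200 in control. The part of these lists in the changes of the NRF2 genes was not tested. In bulk RNA, fewer cells of a type and less RNA per cell cannot be told apart.

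Some arrays stood apart in the NRF2 genes themselves. The arrays numbered 4 of octanoate, palmitate, oleate and linoleate were the highest of their group in 4, 6, 7 and 7 of the 8 detected genes, while the control array numbered 4 was the highest in 0 and had the lowest Hmox1 of its group. Stearate replicate 4 lay below the other stearate arrays in Osgin1 and Pdk4, and above every control in some other NRF2 genes. Its Osgin1 level was 7.95, below all 7 controls (8.03 to 9.20), against 10.18 to 11.25 in the other 7 stearate arrays. Its level of Pdk4, a target of fatty acid-activated nuclear receptors, was 7.48, within the control range of 6.21 to 8.16, against 11.18 to 12.91 in the other stearate arrays. It lay above every control for Hmox1 (11.83 against at most 11.55), Gclc (9.40 against at most 9.07), Gclm (11.54 against at most 10.93) and Txnrd1 (9.82 against at most 9.48). For Gsr it lay barely above, at 7.56 against at most 7.54. Of these genes Gclc alone passed the test under stearate. Values without these arrays are given where they change a call or a sign, which was decided once the values were known.

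**Figure D1:**
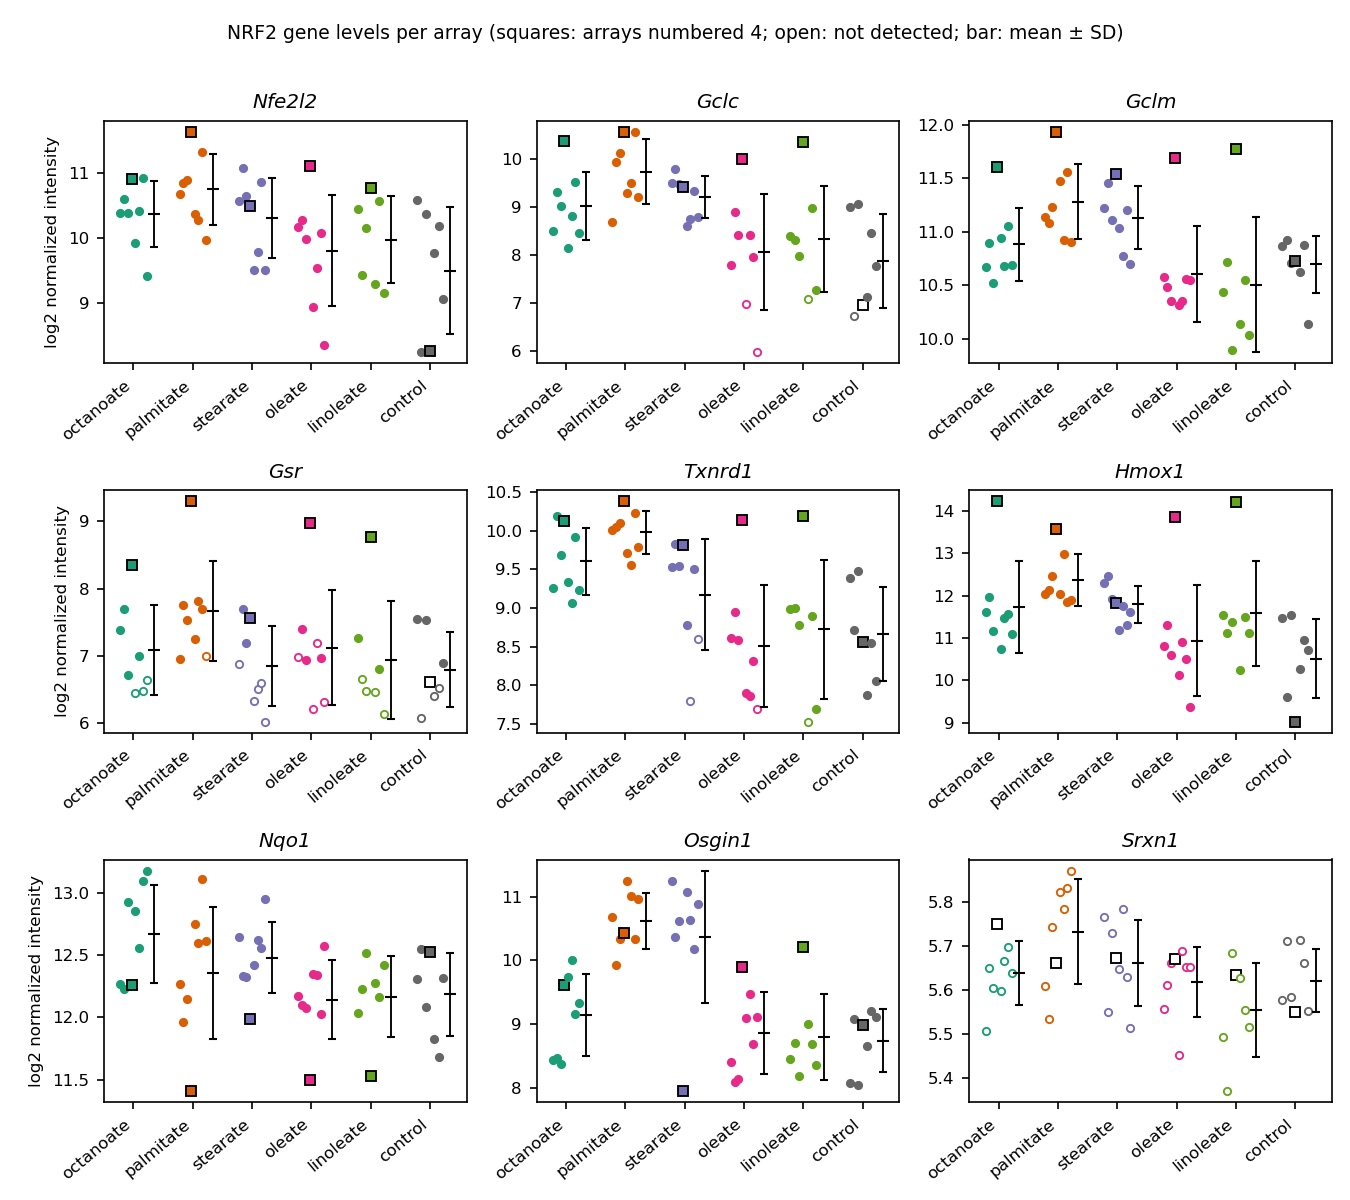
Level of each NRF2 gene on every array, as log2 normalized intensity, by group. Squares are the arrays numbered 4, open symbols are arrays on which the probe was not detected, and bars show the mean ± SD. Palmitate lay above control for Osgin1, Hmox1 and Txnrd1 with no overlap, the squares were highest for Hmox1 in 4 of the 6 groups, and Srxn1 was open on every array. How many of all tested genes separate palmitate from control in this way was not counted.

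Of the 9 genes, 8 passed the detection filter. Srxn1, whose product sulfiredoxin restores over-oxidized peroxiredoxins, was not detected on any of 46 arrays, and its values of 5.37 to 5.87 lie at background in all 6 groups. Gsr was detected on 25 arrays, Gclc on 41 and Txnrd1 on 42, and the other 5 genes on all 46. Asked whether any fatty acid changed the gene, the model's F test called 6 of the 8, where 28.8% of all tested genes were called. The adjusted p was 4.49e-06 for Osgin1, 8.80e-04 for Txnrd1, 0.00279 for Gclc, 0.0118 for Gclm, 0.0239 for Hmox1 and 0.0450 for Nfe2l2. It was 0.117 for Nqo1 and 0.320 for Gsr.

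Palmitate raised 5 of the 8 genes, Osgin1, Gclc, Hmox1, Txnrd1 and Nfe2l2, where 11.1% of all tested genes were called in either direction. Stearate raised 2, Osgin1 and Gclc, where 13.1% of all genes were called in either direction. Octanoate raised 2, Gclc and Txnrd1, and lowered 0. Of all genes 24.7% were called in either direction under octanoate, and 11.6% rose. Its count of calls in either direction lay close to the share of genes in general. Oleate changed 0 of 8 in limma's test (0.571% of all genes), and 0 at an unadjusted p under 0.05 (305 of all 7182 genes). Linoleate changed 0 of 8 (0.473% of all genes), and 1, Hmox1, at an unadjusted p under 0.05 (498 of all 7182 genes). The differences between these counts were not tested as such, and the 5 comparisons share the 7 control arrays. The median log2 change over the 8 genes was 0.68 under octanoate, 1.29 under palmitate, 0.66 under stearate, 0.15 under oleate and 0.10 under linoleate. With the arrays numbered 4 left out it was 0.59, 1.08, 0.50, -0.15 and -0.08 in the same order, so that the sign under oleate and linoleate turned. Over all tested genes it lay between -0.06 and -0.01 in these 5 comparisons. The mean was higher than in control for 8 of 8 genes under octanoate, palmitate and stearate, for 5 under oleate and 6 under linoleate. When arrays were scaled to 1 median in place of quantile normalization, these numbers were 8 under octanoate, 8 under palmitate, 4 under stearate, 4 under oleate and 4 under linoleate. That scaling moved the median of all genes to -0.49 under stearate and -0.22 under linoleate, and of the 8 genes Osgin1 alone passed the test with it, under palmitate and under stearate. Of the 5 palmitate calls 2 remained without the arrays numbered 4 and 7 of all groups, Osgin1 and Hmox1, where 307 of 6796 genes were called. With the replicate number as a block, or with the signal range of the array (its raw signal at the 95th percentile divided by the median one) as a covariate, the palmitate calls came to 7, with Gclm and Gsr added. Those fits called 1640 and 1511 of 7182 genes under palmitate, in that order, against 795 without block or covariate.

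**Figure D2:**
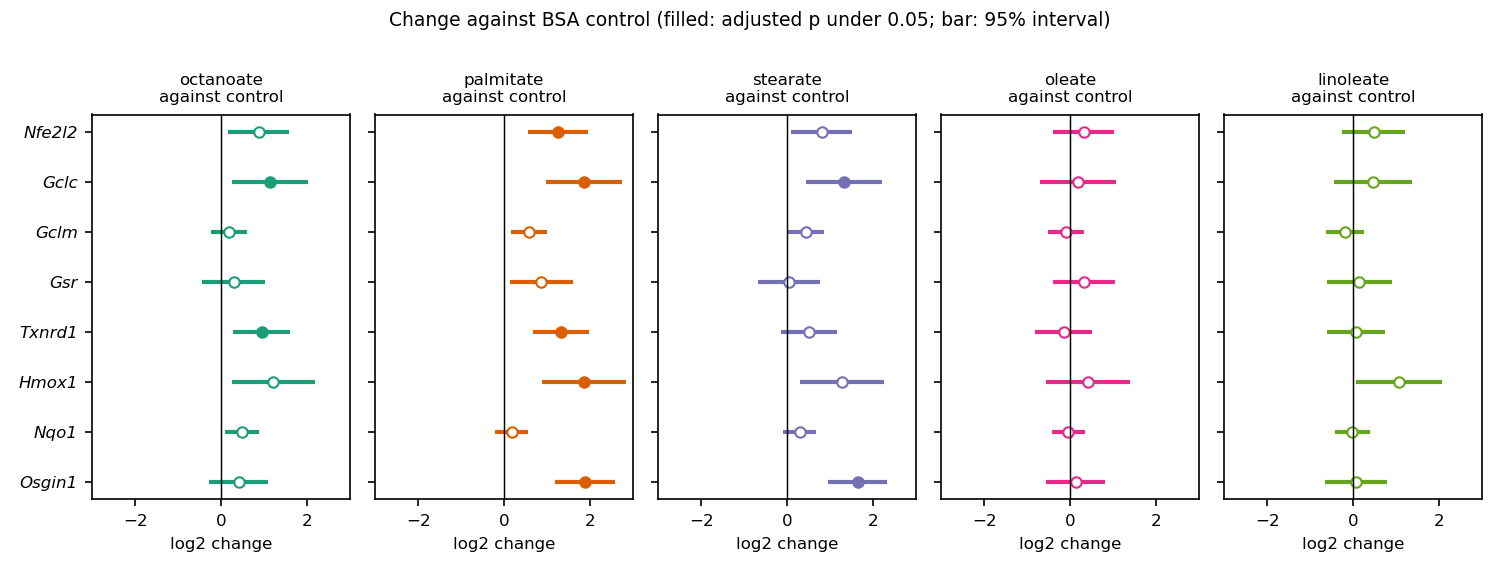
Log2 change of the 8 tested genes under each fatty acid against control, with the 95% interval. Filled points passed an adjusted p of 0.05: 2 under octanoate, 5 under palmitate, 2 under stearate and none under oleate or linoleate.

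Nfe2l2, the regulator itself, was among the genes that rose under palmitate. Its level ran from 9.98 to 11.64 with a median of 10.76 in palmitate, against 8.25 to 10.58 with a median of 9.77 in control. All 8 palmitate arrays lay above the control median and 5 above the highest control. The change was 1.25 ± 0.35 (SE), 2.39-fold, with an adjusted p of 0.0148 in limma. Without the arrays numbered 4 it was 0.92 and no longer passed (adjusted p = 0.0922). Leaving out control replicate 4 alone gave 1.05 (adjusted p = 0.0603), and leaving out control replicate 2 alone gave 1.04 (adjusted p = 0.0607). When the arrays numbered 4 and 7 were left out it was 0.68 (adjusted p = 0.369). The changes under octanoate (0.87 ± 0.35, adjusted p = 0.0620) and stearate (0.81 ± 0.35, adjusted p = 0.126) did not pass. That of octanoate did when octanoate replicate 8 or control replicate 1, 3 or 6 was left out (adjusted p from 0.0250 to 0.0422). Without the arrays under 4500 detected probes both passed, octanoate at 0.87 (adjusted p = 0.0391) and stearate at 1.23 (adjusted p = 0.0350). Both also passed with the replicate block (octanoate 1.02, adjusted p = 0.00683, and stearate 0.95, adjusted p = 0.0191) and with the signal range as a covariate (adjusted p = 0.00486 and 0.00721, in that order). Under oleate it was 0.31 ± 0.35 and under linoleate 0.48 ± 0.36. By mean level the order was palmitate (10.75), octanoate (10.37), stearate (10.31), linoleate (9.98), oleate (9.81) and control (9.50), and no neighbours in it differed by more than the larger of their SDs.

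Glutathione synthesis begins with glutamate-cysteine ligase, which has a catalytic subunit, encoded by Gclc, and a modifier subunit, encoded by Gclm. Gclc rose under the 3 saturated acids and Gclm under none. The Gclc level ran from 8.15 to 10.36 with a median of 8.91 in octanoate, from 8.68 to 10.57 with a median of 9.71 in palmitate and from 8.60 to 9.79 with a median of 9.36 in stearate, against 6.73 to 9.07 with a median of 7.76 in control. All arrays of these 3 fatty acids lay above the control median, though each group overlapped control. The probe was detected on 5 of 7 control arrays and on all arrays of the 3 saturated acids. The change was 1.86 ± 0.44 under palmitate, 3.62-fold (adjusted p = 0.00350), 1.33 ± 0.44 under stearate, 2.52-fold (adjusted p = 0.0357), and 1.14 ± 0.44 under octanoate, 2.21-fold (adjusted p = 0.0493). None of these 3 calls held without the arrays numbered 4 and 7, palmitate giving 1.37 (adjusted p = 0.0614), stearate 1.07 (adjusted p = 0.0916) and octanoate 0.62 (adjusted p = 0.361). The octanoate call did not hold without the arrays numbered 4 (0.79, adjusted p = 0.140), nor when any 1 of octanoate replicates 2, 3, 4, 6 or 7 or control replicates 2, 4, 5 or 7 was left out (adjusted p from 0.0609 to 0.136). The stearate call did not hold when any 1 of stearate replicates 1, 2, 3 or 7 or control replicates 2, 4, 5 or 7 was left out (adjusted p from 0.0540 to 0.0974). Under oleate the Gclc level ran from 5.98 to 9.99 with a median of 8.19, a change of 0.18 ± 0.44, and under linoleate from 7.08 to 10.35 with a median of 8.31, a change of 0.46 ± 0.45. The order by mean was palmitate (9.73), stearate (9.20), octanoate (9.01), linoleate (8.34), oleate (8.05) and control (7.87), with no neighbours apart by more than their larger SD.

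Gclm varied less than its partner. Its level ran from 10.90 to 11.94 with a median of 11.18 in palmitate, against 10.14 to 10.93 with a median of 10.73 in control. Of 8 palmitate arrays 7 lay above the highest control, but the change of 0.59 ± 0.21 missed the threshold (adjusted p = 0.0584). It passed without the arrays numbered 4 (0.49, adjusted p = 0.0265) and without palmitate replicate 8 alone (0.64, adjusted p = 0.0458). It also passed with the replicate block (0.62, adjusted p = 0.00319) and with the signal range as a covariate (0.71, adjusted p = 0.00768), and not without the arrays numbered 4 and 7 (0.33, adjusted p = 0.251). Stearate gave 0.43 ± 0.21 (adjusted p = 0.173) and octanoate 0.19 ± 0.21 (adjusted p = 0.544), and oleate (-0.09 ± 0.21) and linoleate (-0.19 ± 0.21) lay slightly below control in the mean. Their order was palmitate (11.28), stearate (11.13), octanoate (10.89), control (10.70), oleate (10.61) and linoleate (10.51), with neighbours closer than their larger SD.

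Gsr, the glutathione reductase that turns oxidized glutathione back to its reduced form, was dim. It was detected on 7 of 8 palmitate arrays, 5 octanoate, 3 stearate, 4 oleate and 3 linoleate arrays, against 3 of 7 control arrays. The level ran from 6.95 to 9.30 with a median of 7.61 in palmitate, against 6.07 to 7.54 with a median of 6.62 in control. All 8 palmitate arrays lay above the control median and 4 above the highest control. The change of 0.87 ± 0.36, 1.82-fold, did not pass (adjusted p = 0.113). It passed with the replicate block (0.96, adjusted p = 0.00507) and with the signal range as a covariate (1.18, adjusted p = 0.00294). The changes under the other 4 acids lay between 0.05 under stearate and 0.33 under oleate. The order was palmitate (7.66), oleate (7.12), octanoate (7.08), linoleate (6.93), stearate (6.84) and control (6.79), with no gap beyond the larger SD.

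Txnrd1, the cytosolic thioredoxin reductase, rose under palmitate and octanoate. Its level ran from 9.56 to 10.39 with a median of 10.03 in palmitate and from 9.07 to 10.20 with a median of 9.51 in octanoate, against 7.87 to 9.48 with a median of 8.56 in control. All 8 palmitate arrays lay above all 7 controls, and all 8 octanoate arrays above the control median, 4 of them above the highest control. The change was 1.32 ± 0.33 under palmitate, 2.50-fold (adjusted p = 0.00536), and 0.94 ± 0.33 under octanoate, 1.92-fold (adjusted p = 0.0286). Neither passed without the arrays numbered 4 and 7, palmitate at 1.07 (adjusted p = 0.0504) and octanoate at 0.66 (adjusted p = 0.165). The octanoate call was lost when octanoate replicate 2, 4 or 7 or control replicate 5 or 7 was left out (adjusted p from 0.0532 to 0.0767). Stearate levels spread from 7.79 to 9.83 with a median of 9.52, a change of 0.51 ± 0.33 (adjusted p = 0.318). The change was -0.15 ± 0.33 under oleate and 0.07 ± 0.34 under linoleate. By mean level the order was palmitate (9.98), octanoate (9.60), stearate (9.18), linoleate (8.73), control (8.66) and oleate (8.51), without a gap that exceeded the larger SD.

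Hmox1 encodes haem oxygenase 1, which breaks haem down to biliverdin, carbon monoxide and iron. Its level ran from 11.85 to 13.58 with a median of 12.09 in palmitate, against 9.03 to 11.55 with a median of 10.72 in control. All 8 palmitate arrays lay above all 7 controls, and the change was 1.86 ± 0.48, 3.63-fold (adjusted p = 0.00795). Without the arrays numbered 4 it was 1.43 ± 0.28, 2.69-fold (adjusted p = 6.21e-04). In stearate the level ran from 11.18 to 12.47 with a median of 11.80, and 6 of 8 arrays lay above the highest control. The change of 1.28 ± 0.48 missed the threshold with all arrays (adjusted p = 0.0694) and passed without those numbered 4, at 1.02 ± 0.28 (adjusted p = 0.0105). In octanoate, oleate and linoleate 1 array each stood far above the rest: 14.24 against at most 11.98 among the other octanoate arrays, 13.85 against at most 11.30 in oleate and 14.22 against at most 11.54 in linoleate. The changes in these groups were 1.22 ± 0.48 (adjusted p = 0.0582), 0.42 ± 0.48 (adjusted p = 1.00) and 1.07 ± 0.50 (adjusted p = 0.671), in that order. Without the arrays numbered 4 they were 0.61 ± 0.28 under octanoate (adjusted p = 0.117), -0.25 ± 0.28 under oleate (adjusted p = 0.999) and 0.38 ± 0.29 under linoleate (adjusted p = 0.998), so that the sign under oleate turned. The octanoate change passed without octanoate replicate 5, control replicate 1 or control replicate 3 (adjusted p from 0.0355 to 0.0424), and the stearate change without control replicate 1 or 3 (adjusted p = 0.0475 and 0.0447). The means ran in the order palmitate (12.38), stearate (11.80), octanoate (11.73), linoleate (11.59), oleate (10.93) and control (10.52), each closer to the next than the larger SD.

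Nqo1, a quinone reductase and a common reporter of NRF2 activity, did not pass the test under any of the 5 fatty acids. Its level ran from 11.41 to 13.11 with a median of 12.44 in palmitate, against 11.68 to 12.55 with a median of 12.31 in control, and the groups overlapped widely. The change was 0.17 ± 0.19 under palmitate (95% interval -0.21 to 0.56), so a rise of the size seen for Osgin1 lay outside its interval. Stearate gave 0.30 ± 0.19, oleate -0.04 ± 0.19 and linoleate -0.02 ± 0.20. Octanoate gave the highest mean, with levels from 12.23 to 13.18 and a median of 12.71. That change of 0.49 ± 0.19, 1.40-fold, missed the threshold (adjusted p = 0.0574) and passed without the arrays numbered 4, at 0.60 ± 0.17 (adjusted p = 0.00663). It also passed when any 1 of octanoate replicates 1, 2 or 4 or control replicates 2 or 4 was left out (adjusted p from 0.0344 to 0.0478). The order was octanoate (12.67), stearate (12.48), palmitate (12.36), control (12.19), linoleate (12.17) and oleate (12.14), with no gap beyond the larger SD.

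Osgin1, an oxidative stress-induced growth inhibitor, had the smallest adjusted p of the 8 genes under both palmitate and stearate. Its level ran from 9.94 to 11.25 with a median of 10.56 in palmitate and from 7.95 to 11.25 with a median of 10.63 in stearate, against 8.03 to 9.20 with a median of 8.99 in control. All 8 palmitate arrays and 7 of 8 stearate arrays lay above all controls, replicate 4 of stearate being the exception. The change was 1.88 ± 0.34 under palmitate, 3.69-fold (adjusted p = 2.29e-04), and 1.64 ± 0.34 under stearate, 3.11-fold (adjusted p = 0.00110). Without stearate replicate 4 the stearate change was 1.99 ± 0.29, 3.97-fold (adjusted p = 4.28e-06). Octanoate (8.37 to 10.01), oleate (8.09 to 9.89) and linoleate (8.18 to 10.22) overlapped control, with changes of 0.41 ± 0.34, 0.13 ± 0.34 and 0.06 ± 0.36 that did not pass. The order by mean was palmitate (10.62), stearate (10.37), octanoate (9.14), oleate (8.86), linoleate (8.80) and control (8.73). The step from stearate to octanoate, 1.23, was the single gap in the orders of the 8 genes that exceeded the larger SD of its neighbours, 1.04.

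The fatty acids were next set against each other, along chain length and then along saturation, in 4 comparisons of all tested genes. Same-numbered arrays deviated together in 3 of them: the correlation of their deviations over genes was 0.326 to 0.874 for the 8 pairs of palmitate and octanoate, 0.137 to 0.753 for stearate and palmitate and 0.178 to 0.849 for oleate and stearate. The values with the replicate number as a block are therefore given where they differ.

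Palmitate against octanoate, a longer against a shorter saturated chain, changed 1 of 8 genes, where 2.23% of all tested genes were called. It was Osgin1, at 9.94 to 11.25 in palmitate against 8.37 to 10.01 in octanoate. Of 8 palmitate arrays 7 lay above every octanoate array, and the change was 1.48 ± 0.33, 2.79-fold (adjusted p = 0.00565). Of the other 7 genes 6 had a higher mean in palmitate, by 0.38 (Txnrd1 and Nfe2l2) to 0.71 (Gclc), and Nqo1 a lower one, -0.31 ± 0.19. None of these passed, and the 95% interval of Gclc ran from -0.14 to 1.56.

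Stearate against palmitate set the longer of the long saturated chains against the shorter. It changed 0 of 8 genes in limma's test, where 4.18% of all genes were called. At an unadjusted p under 0.05, 1437 of all 7182 genes passed, and so did 2 of the 8, close to that share. These were Txnrd1, 7.79 to 9.83 in stearate against 9.56 to 10.39 in palmitate, and Gsr, 6.02 to 7.69 in stearate against 6.95 to 9.30 in palmitate. Txnrd1 was lower than every palmitate array in 6 of 8 stearate arrays and Gsr in 5 of 8. The changes were -0.80 ± 0.31 (adjusted p = 0.145) and -0.82 ± 0.35 (adjusted p = 0.186), in the same order. With the replicate number as a block both passed, Txnrd1 with an adjusted p of 0.0200 and Gsr with 0.0235. That fit called 815 of 7182 genes, against 300 without the block. Osgin1 gave -0.25 ± 0.33 without the block, with an interval from -0.91 to 0.42. The 3 arrays with the fewest detected probes of stearate, replicates 5, 6 and 8, had 3700, 4143 and 3090, against 5216 to 7011 in palmitate. Without the 4 arrays under 4500 detected probes the change was -0.33 for Txnrd1 (adjusted p = 0.748) and -0.49 for Gsr (adjusted p = 0.675).

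Oleate against stearate, a chain with 1 double bond against the saturated chain of the same length, changed 1 of 8 genes, where 6.92% of all genes were called. Osgin1 ran from 8.09 to 9.89 with a median of 8.89 in oleate, against 7.95 to 11.25 with a median of 10.63 in stearate. All 8 oleate arrays lay below the other 7 stearate arrays and above replicate 4. Its change was -1.51 ± 0.33, 2.86-fold lower (adjusted p = 0.00222). Without stearate replicate 4 it was -1.86, 3.64-fold lower (adjusted p = 1.02e-05). When the 4 arrays with under 4500 detected probes were left out it was -1.25 (adjusted p = 0.0765). With the replicate number as a block 4 genes were lower in oleate: Osgin1 (adjusted p = 6.91e-04), Gclm (-0.52, adjusted p = 0.0138), Gclc (-1.15, adjusted p = 0.0212) and Txnrd1 (-0.67, adjusted p = 0.0455). The same fit called 999 of 7182 genes, against 497 without the block. Without the arrays numbered 4 there were 5, where 1033 of 6939 genes were called. The same 4 fell, Osgin1 with an adjusted p of 3.23e-07 and the others by 1.39 for Gclc (adjusted p = 0.00776), 0.61 for Gclm (adjusted p = 0.00215) and 0.81 for Txnrd1 (adjusted p = 0.0483). The fifth was Hmox1, at -1.27 ± 0.27, 2.41-fold lower (adjusted p = 8.66e-04). These 5 genes also passed in limma when oleate replicate 4 alone was left out (adjusted p from 6.30e-04 to 0.0441). The number of all genes called in that fit is not given here. With all arrays and no block, those 4 genes besides Osgin1 had adjusted p from 0.0887 to 0.279.

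Linoleate against oleate, more than 1 double bond against 1, changed 0 of 8 genes. Of all 7182 genes limma called 0, that is 0%, with 35 at an unadjusted p under 0.05. The number of these among the 8 was 0. The changes ran from -0.19 ± 0.36 for Gsr to 0.65 ± 0.48 for Hmox1, whose interval from -0.32 to 1.62 is the widest.

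**Figure D3:**
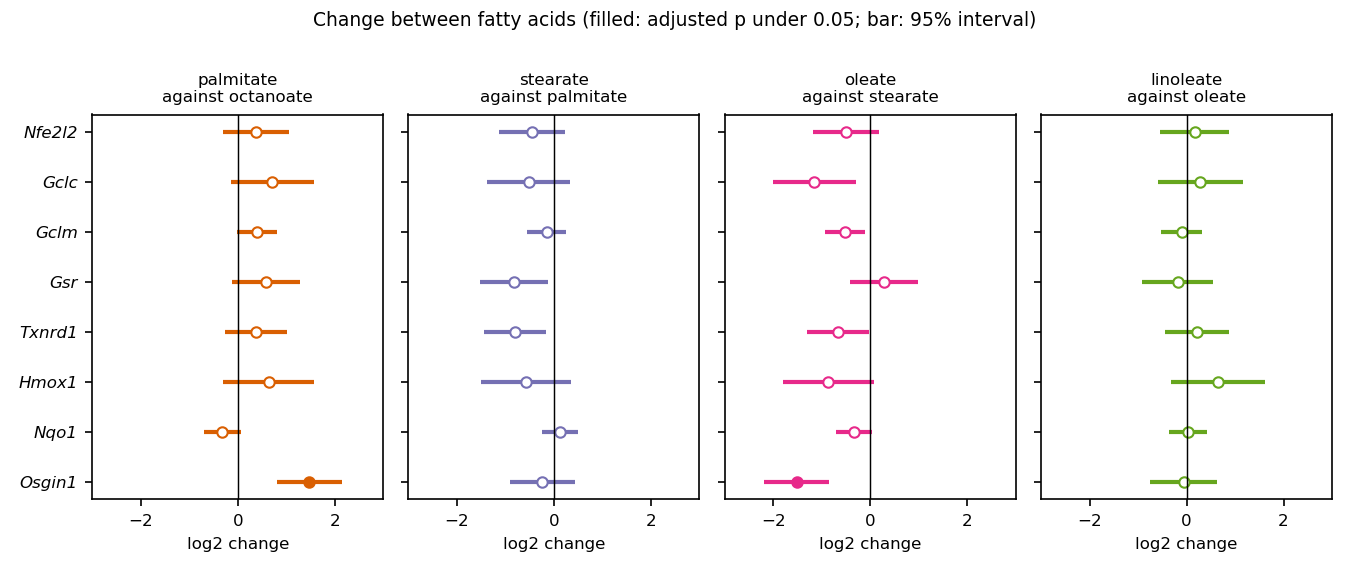
Log2 change of the 8 tested genes between fatty acids that differ in chain length or saturation, with the 95% interval. Filled points passed an adjusted p of 0.05: Osgin1 was higher in palmitate than in octanoate and lower in oleate than in stearate.

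The genes varied together from array to array within the groups, with Osgin1 and Nqo1 as exceptions. The deviations of Hmox1, Gclc, Gclm, Txnrd1, Gsr and Nfe2l2 from their group means correlated at 0.53 to 0.86 (Pearson, 15 pairs of genes, 46 arrays), and at 0.16 to 0.83 over the 40 arrays left without those numbered 4. Nqo1 correlated with these 6 at -0.71 to -0.46, and at -0.46 to -0.11 without the arrays numbered 4. Osgin1 correlated with them at -0.19 to 0.21, and at -0.47 to 0.04 without the arrays numbered 4. These 6 were grouped after the correlations were seen, and the points share arrays, so the values are a description. Within groups the signal range of an array correlated at 0.45 to 0.65 with each of the 6, at -0.61 with Nqo1 and at -0.25 with Osgin1. The part of it in the shared variation was not tested.

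**Figure D4:**
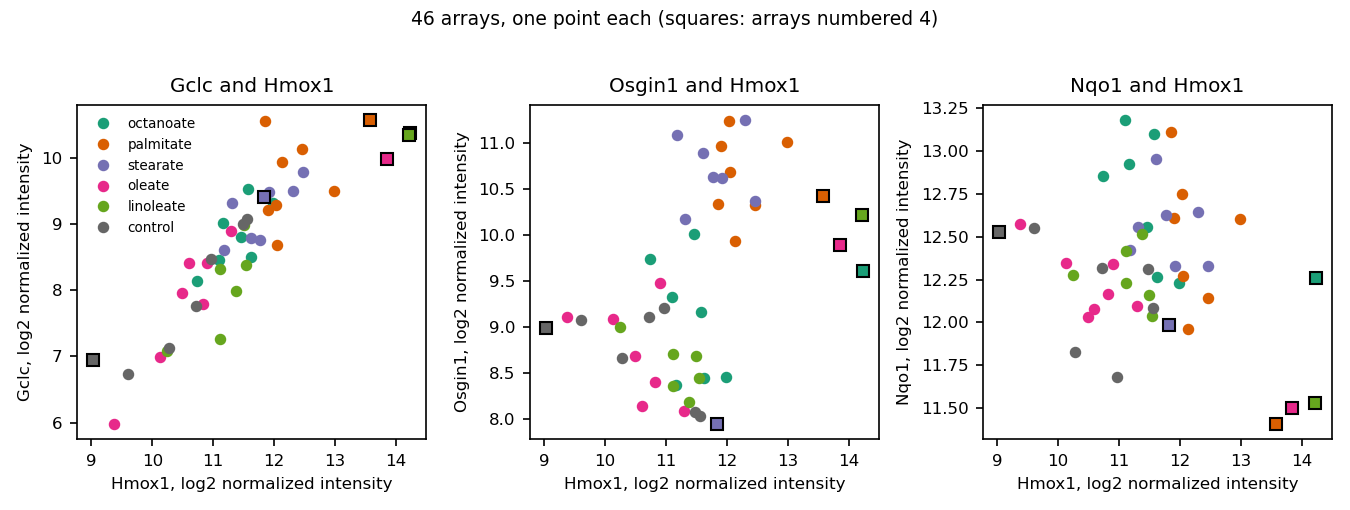
Levels of Gclc, Osgin1 and Nqo1 against that of Hmox1 on the 46 arrays, as log2 normalized intensity, coloured by group. Squares are the arrays numbered 4. Gclc runs with Hmox1 within and between groups, Osgin1 was high in palmitate and in stearate apart from its replicate 4, and the squares of palmitate, oleate and linoleate lie at high Hmox1 and low Nqo1.

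Over all 46 arrays, the named genes closest in pattern to each NRF2 gene were found by Pearson correlation of log2 levels, which includes differences between groups and shared array effects. For Hmox1 they were Kansl2 (0.886), Gclc (0.876) and Smim3 (0.847), and for Gclc Kansl2 (0.928), Rabggtb (0.916) and Rtn4 (0.896). Gclm was closest to Nabp1 (0.797), Akr1b8 (0.785) and Txnrd1 (0.782), and Txnrd1 to Serp1 (0.874), Akr1b8 (0.866) and Atp1b3 (0.856). The aldo-keto reductase Akr1b8 thus stood among the closest genes of both. Nfe2l2 was closest to Dhx15 (0.927), Sdcbp (0.919) and Hsp90aa1 (0.906), Gsr to Ddx10 (0.886), Gbe1 (0.879) and Mthfd1l (0.872), and Nqo1 to Shmt2 (0.749), Krtcap2 (0.743) and Ptgis (0.733). Osgin1 was closest to Rcan1 (0.850), an inhibitor of calcineurin, Abra (0.838) and Gadd45b (0.836), a stress-induced gene.

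Other genes of the pathway were counted in 3 further lists. Of all tested genes 11.6% rose and 13.1% fell under octanoate, 5.3% rose and 5.76% fell under palmitate, and 4.19% rose and 8.91% fell under stearate. Under oleate 0.515% rose and 0.0557% fell, and under linoleate 0.334% rose and 0.139% fell. Of 50 further NRF2 targets, listed from general knowledge, 33 were tested: 2 rose and 8 fell under octanoate, 1 rose and 3 fell under palmitate, and 0 rose and 2 fell under stearate. Under oleate and linoleate 0 passed. Their median change lay between -0.08 and 0.02 in the 5 comparisons. Akr1b8 rose under both octanoate (1.63 ± 0.51, adjusted p = 0.0146) and palmitate (1.92 ± 0.51, adjusted p = 0.00919), and was detected on 8 octanoate and 7 palmitate arrays, against 2 of 7 control arrays. Sqstm1, the autophagy receptor p62 that also binds KEAP1, rose under octanoate (1.15 ± 0.38, adjusted p = 0.0215) and had 1.10 ± 0.38 under palmitate (adjusted p = 0.0501). Blvra, the biliverdin reductase that acts after haem oxygenase, fell by 0.93 under octanoate (adjusted p = 0.00173), by 0.92 under palmitate (adjusted p = 0.00495) and by 1.03 under stearate (adjusted p = 0.00163). Under octanoate alone among the 5, the transporter Abcc3 (-1.44 ± 0.25, adjusted p = 3.04e-05), the glutathione transferase Mgst1 (-1.36 ± 0.25, adjusted p = 7.93e-05) and Idh1 (-1.11 ± 0.39, adjusted p = 0.0310), which makes NADPH, passed the test, and all 3 were lower. The difference of these changes from those of the other acids was not tested here.

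Of 17 genes that regulate NRF2, 11 were tested: 3 rose under octanoate, 3 under palmitate and 0 under the other acids, and 0 fell. Syvn1, a ubiquitin ligase of the endoplasmic reticulum that can target NRF2, rose by 0.91 ± 0.18 under octanoate (adjusted p = 2.21e-04) and by 0.97 ± 0.18 under palmitate (adjusted p = 3.40e-04). Mafg, a small MAF partner of NRF2, rose by 0.56 ± 0.17 under octanoate (adjusted p = 0.0119) and by 0.61 ± 0.17 under palmitate (adjusted p = 0.0145). Its relative Mafk rose under palmitate (0.68 ± 0.18, adjusted p = 0.00839), and Rbx1, part of the ligase that works with KEAP1, rose under octanoate (0.49 ± 0.13, adjusted p = 0.00426).

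Of 31 other antioxidant enzymes and thioredoxin-related genes, 24 were tested. Under octanoate 1 rose and 6 fell, under stearate 0 rose and 2 fell, and under palmitate, oleate and linoleate 0 passed. The 2 of 24 that fell under stearate lay close to the share of all genes that did. Those that fell under octanoate included Txnip, the thioredoxin-binding protein (-1.12 ± 0.16, adjusted p = 2.79e-06), the glutathione peroxidase Gpx1 (-1.08 ± 0.20, adjusted p = 6.95e-05), the mitochondrial thioredoxin reductase Txnrd2 (-0.75 ± 0.21, adjusted p = 0.00655), Msrb2, which repairs oxidized methionine in mitochondria (-0.75 ± 0.19, adjusted p = 0.00307), and Selenow (-0.74 ± 0.28, adjusted p = 0.0422). Sesn1, a stress-induced regulator of growth, fell under stearate (-1.05 ± 0.23, adjusted p = 0.00185). The mitochondrial Txnrd2 and the cytosolic Txnrd1 had changes of opposite sign under octanoate.

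**Figure D5:**
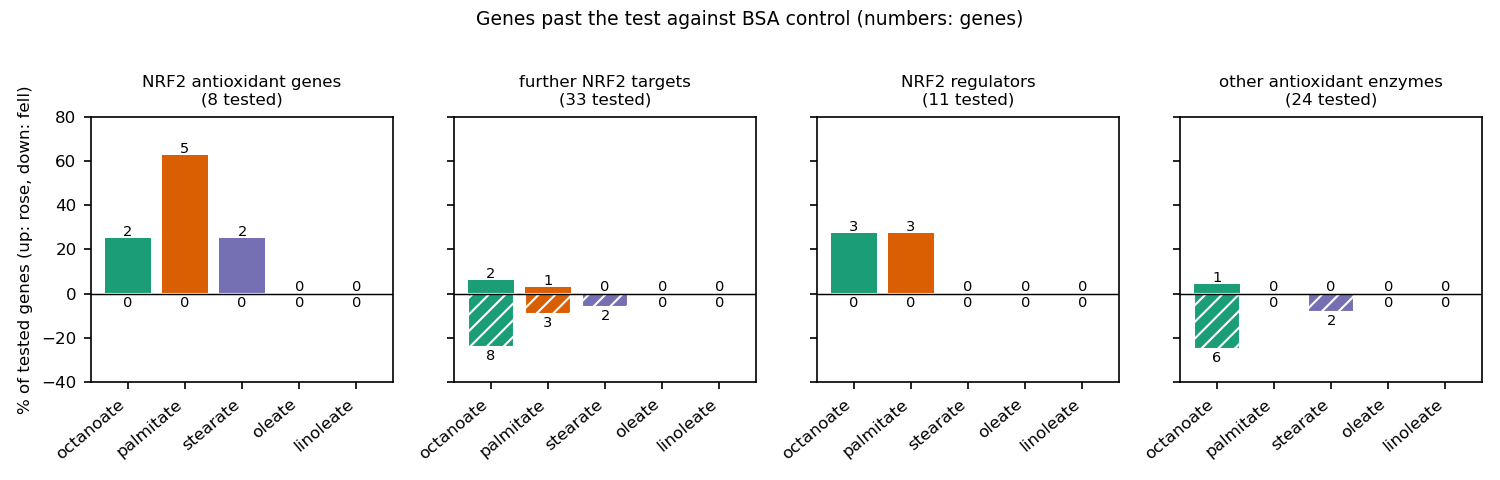
Share of tested genes past an adjusted p of 0.05 against control, with rises above and falls (hatched) below the line, and the number of genes at each bar. The 4 panels are the NRF2 antioxidant genes (8 tested), further NRF2 targets (33), NRF2 regulators (11) and other antioxidant enzymes (24).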

How the data were processed

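Total RNA of 46 samples was hybridized, 1 array per sample, to Illumina rat BeadChips that carry 50-base probes and are read in 1 dye. The deposited table holds, per the file headers, the mean bead intensity of each probe and array, exported with BeadStudio 3 per the submitters' processing notes and given without background subtraction or normalization between arrays. Beside it stands the authors' detection p-value, per the file headers. A second deposited table of intensity values held the same probe order within each array with all arrays on nearly the same distribution, and served as an alternative.

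Probes were named through a RefSeq table of the GRCr8 assembly by accession, gene number, symbol or synonym (17287 of 22517 found a name there, 5033 retained the one deposited and 197 lacked one). Intensities were background-corrected with limma 3.58.1 (R 4.3.3) by the normal-exponential model, using detection p-values to infer the negative controls, with an offset of 16. Quantile normalization and log2 transformation followed. A probe had to be detected (p under 0.01) on 7 or more arrays, and the brightest such probe by mean represented its gene. A limma model of 6 group means over all arrays, with an intensity trend, gave two-sided tests, with Benjamini-Hochberg adjustment over 7182 genes within each comparison and a threshold of 0.05. It was tested on simulated data. Precision is limited by the number of arrays: half-widths of the 95% interval of a log2 change had medians of 0.461 to 0.493 over genes.

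Same-numbered arrays were taken as pairs where the deviations of every pair from the group means correlated above 0.1 over genes. This held for palmitate and octanoate, stearate and palmitate, and oleate and stearate, and not for linoleate and oleate (6 of 7 pairs) or for the comparisons with control (3 or 4 of 7 pairs). The pairing comes from these values and no label states it. The alternatives were other background corrections, scalings, detection filters, probe choices and value tables, a replicate block, the signal range as a covariate, fits of the compared groups alone, and arrays left out singly or together. The NRF2 genes, the further lists and the rule for naming their genes (past the test against control, at most 6 of a list by size of change) were chosen with earlier results of these data known. Sequences of the bead probes were not used here.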

Additional observations from a re-analysis of the deposited data

Results flagged for a closer look

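In 10 of 48 combinations of gene and group, 1 array stood apart from the rest of its group by Dixon's gap test at the 95% level, a test that chance alone passes in about 1 of 20 groups. Levels are log2 normalized intensities. Array 4 was the high one in 8 of the combinations. For Hmox1 its level was 14.24 in octanoate, 13.85 in oleate and 14.22 in linoleate. For Gsr it was 9.30 in palmitate, 8.98 in oleate and 8.77 in linoleate, for Gclm 11.69 in oleate, and for Osgin1 10.22 in linoleate. The 2 low arrays were stearate replicate 4 for Osgin1, at 7.95, and control replicate 7 for Gclm, at 10.14. What sets these arrays apart was not tested.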

How the results depend on the processing

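The Osgin1 calls under palmitate and under stearate held in all 13 alternatives and with each array left out. The counts of NRF2 genes past the test moved elsewhere, and the cause was not tested. Under octanoate (2 genes) the count was 1 without background correction, 1 with an offset of 50, 0 with median scaling, 0 without a detection filter, 5 with a replicate block, 1 without the arrays numbered 4 and 7, 4 with the signal range as a covariate, 1 from the series matrix values, 3 without the arrays under 4500 detected probes, and 0 to 4 with 1 array left out. Under palmitate (5) it was 1 with median scaling, 2 without the arrays numbered 4 and 7, 7 with a replicate block, 7 with the signal range as a covariate, 6 from the groups compared alone, and 4 to 6 with 1 array left out. Under stearate (2) it was 1 with median scaling, 1 without a detection filter, 5 with a replicate block, 6 with the signal range as a covariate, 3 from the groups compared alone, 3 without the arrays numbered 4, 3 without the arrays under 4500 detected probes, and 1 to 3 with 1 array left out. Palmitate against octanoate (1) gave 0 with median scaling, and stearate against palmitate (0) gave 2 with a replicate block. Oleate against stearate (1) gave 0 with median scaling, 4 with a replicate block, 4 without the arrays numbered 4 and 7, 4 with the signal range as a covariate, 5 without the arrays numbered 4, 0 without the arrays under 4500 detected probes, and 1 to 5 with 1 array left out. For any fatty acid (6) the count was 2 with median scaling, 4 without a detection filter, 5 without the arrays numbered 4 and 7, 8 with a replicate block, 8 with the signal range as a covariate, and 4 to 6 with 1 array left out. How many of all genes that F test called in the alternatives is not given here. The replicate numbers are no stated pairs in comparisons with control, where the block moved the calls under octanoate, palmitate and stearate as given. Of all 7182 genes the block called 2544 under octanoate, 1640 under palmitate, 1502 under stearate and 999 for oleate against stearate. With the signal range as a covariate these were 2700, 1511, 1329 and 719, in that order. How far the counts of NRF2 genes followed these numbers was not tested. Over all genes the alternatives called 657 to 2700 under octanoate (1777 as reported), 204 to 1640 under palmitate (795), 422 to 1862 under stearate (941), 13 to 72 under oleate (41), 8 to 66 under linoleate (34), 37 to 408 for palmitate against octanoate (160), 85 to 815 for stearate against palmitate (300) and 189 to 1033 for oleate against stearate (497). Linoleate against oleate called 0 to 2 (0). Median scaling moved the share of higher calls to 34.8% under palmitate (47.9% otherwise), 1.77% under stearate (32.0%), 87.5% under linoleate (70.6%), 51.4% for palmitate against octanoate (63.1%), 0.996% for stearate against palmitate (26.3%) and 96.7% for oleate against stearate (67.2%). Gsr lay near the detection limit and Srxn1 under it, so the signal over background limits what either can show.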
